A study of Homo sapiens with 12 samples.

Results

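The genes described here were 10 genes of intestinal epithelial identity: CDX2, CDH17, VIL1, LGALS4, GPA33, HNF4A, CEACAM5, CEACAM6, FABP1 and KRT20. They were chosen by symbol among the 28278 gene symbols counted, and all 10 were found. CDH17 was included because it had been seen to increase in CCL218 only, so its own values are given as a description with no test. The other 9 were listed as intestinal genes with earlier results of these data known. The study describes OVCAR3 as a line from a serous ovarian carcinoma of high grade and CCL218 as a colorectal line that derives from HT29. Both were passaged with or without hydroxychloroquine (HCQ), a drug that accumulates in lysosomes and blocks autophagy. HCQ-evolved cells had received 15 drug pulses of 48 h, each followed by recovery, and were then grown for 7 days in medium without drug, and the labels place them at passage 15. Control cells of each line were passaged without HCQ, and the labels place them at passage 19. Neither arm carried an engineered allele. PolyA RNA was sequenced from pools of wells from the left (L), middle (M) and right (R) of a plate, giving 3 pools for each of the 4 groups and 12 libraries in all, with 31147822 to 59965861 counts per pool.

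All pools of a group came from 1 plate, so treatment, passage number and plate cannot be told apart, and p-values measure only the spread between pools. In pools of cells, fewer cells of a kind and less RNA per cell cannot be told apart either.

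CDX2 is a homeobox transcription factor that directs intestinal differentiation, and HNF4A is a nuclear receptor that acts with it on enterocyte genes. Many of the proteins that mark the intestinal lining are known targets of these factors, among them the cadherin CDH17, which joins neighbouring cells, the A33 antigen GPA33, the actin bundler VIL1 of the microvilli, and the fatty acid binding protein FABP1. CEACAM5 and CEACAM6 are glycoproteins anchored to the membrane and used as antigens of colorectal tumours, LGALS4 is a lectin of the gut lining, and KRT20 is a keratin of mature surface cells.

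The genes other than CDH17 that rose in CCL218 on HCQ evolution lie on chromosomes 13, 1 and 19, and the bases just upstream of their RefSeq starts are shown because CDX2, a factor among the members, was itself one of them. CEACAM5 and CEACAM6 are neighbours on chromosome 19, 20.5 kb apart, and are shown one after the other so that their likeness can be read. FABP1 and LGALS4 are shown as members that were not called in CCL218. Sequences are from RefSeq on GRCh38.p14 and run 5′ to 3′ in the direction of the gene, ending just before the RefSeq start or before the first annotated exon base, which leaves out the last 41 bases for CEACAM5 and the last 10 for CEACAM6. Capitals mark TTTAT or its reverse complement ATAAA, a core of sites bound by CDX factors.
CDX2 (chr13:27969316-27969565, minus strand): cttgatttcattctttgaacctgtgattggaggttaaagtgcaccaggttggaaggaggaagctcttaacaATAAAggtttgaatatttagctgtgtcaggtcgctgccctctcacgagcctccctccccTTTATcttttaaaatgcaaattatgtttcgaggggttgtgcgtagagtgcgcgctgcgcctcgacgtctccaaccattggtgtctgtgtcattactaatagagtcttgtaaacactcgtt
GPA33 (chr1:167090378-167090627, minus strand): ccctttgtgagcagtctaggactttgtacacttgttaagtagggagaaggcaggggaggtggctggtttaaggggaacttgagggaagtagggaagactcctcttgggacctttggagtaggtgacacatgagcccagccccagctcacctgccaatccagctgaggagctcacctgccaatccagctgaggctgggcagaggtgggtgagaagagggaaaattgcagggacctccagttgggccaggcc
CEACAM5 (chr19:41708376-41708584, plus strand): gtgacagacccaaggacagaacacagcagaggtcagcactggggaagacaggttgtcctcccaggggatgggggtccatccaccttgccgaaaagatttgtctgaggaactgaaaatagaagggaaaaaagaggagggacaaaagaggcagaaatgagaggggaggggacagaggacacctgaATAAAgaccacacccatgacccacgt
CEACAM6 (chr19:41755280-41755519, plus strand): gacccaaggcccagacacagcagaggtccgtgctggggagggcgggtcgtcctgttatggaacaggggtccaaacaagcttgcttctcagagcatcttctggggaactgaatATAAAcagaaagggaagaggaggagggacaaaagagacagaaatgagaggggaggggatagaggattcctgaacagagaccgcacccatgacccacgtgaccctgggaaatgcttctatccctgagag
FABP1 (chr2:88128063-88128312, minus strand): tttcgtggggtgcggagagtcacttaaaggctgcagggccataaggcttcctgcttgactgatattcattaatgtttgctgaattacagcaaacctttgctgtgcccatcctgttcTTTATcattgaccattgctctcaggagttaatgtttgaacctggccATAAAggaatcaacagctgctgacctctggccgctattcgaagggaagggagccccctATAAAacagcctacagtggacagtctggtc
LGALS4 (chr19:38812946-38813195, minus strand): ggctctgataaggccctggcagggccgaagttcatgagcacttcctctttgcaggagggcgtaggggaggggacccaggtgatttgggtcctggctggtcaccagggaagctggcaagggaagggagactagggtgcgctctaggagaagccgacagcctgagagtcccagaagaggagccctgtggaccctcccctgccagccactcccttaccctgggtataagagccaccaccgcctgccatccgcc

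The CDX core was found on either strand in the 250 bases before 32.7% of 35116 RefSeq starts, so its presence is common. It overlaps the letters TATAAA of a TATA box. FABP1 held 3 copies, 134, 88 and 30 bases before the start, and CDX2 held 2, at 179 and 120 bases. CEACAM5 had 1 copy at 67 bases and CEACAM6 had 1 at 138 bases, again counted from the start and not from the end of the printed stretch. These were different places of windows that, taken over all 250 bases, were 74.6% identical in 260 aligned columns (the highest identity of any other pair of members was 53.6%). KRT20 also held 3 copies. None was found before the RefSeq start used for GPA33, before LGALS4 or before either of the 2 starts of HNF4A. The HNF4 half-site CAAAGT, searched on both strands as well and present before 10.3% of starts, was found only before GPA33 among the 8 members matched, 230 bases upstream. A match of letters is a description of the sequence and not a measured binding site. CDH17 and VIL1 had no entry in the table used.

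Before the comparisons, the line labels were checked against markers of both tissues. Libraries labelled OVCAR3 carried intestinal markers: 6 of 8 markers of intestinal epithelium (CDX2, CDH17, VIL1, LGALS4, GPA33 and PHGR1) averaged at least 1 CPM (counts-per-million, after TMM scaling of library sizes) in control OVCAR3, and the same number did in control CCL218. The summed level of the 8 markers was 968.8 to 1240 CPM in control OVCAR3 and 1133 to 1696 CPM in control CCL218. Most of it was LGALS4 (643 to 859 and 879 to 1369 CPM) and VIL1 (197 to 290 and 180 to 202 CPM). CDX1 and GUCY2C stayed under 1 CPM in every pool. Markers of ovarian and Müllerian epithelium were present under both labels as well, with 9 of 14 at 1 CPM or more in each control group and summed levels of 1020 to 2052 and 723 to 1673 CPM. PAX8, a transcription factor of Müllerian epithelium, was at 14.9, 9.30 and 11.9 CPM in control OVCAR3 and at 11.2, 7.29 and 6.40 CPM in control CCL218.

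SOX17, a defining factor of this lineage, had 0 counts in all 12 libraries, which allows up to 0.0942 CPM in the shallowest (3 counts, counting error only), and EMX2 and ESR1 were at or under that floor. MUC16, which encodes the CA125 antigen, was at 13.0 to 30.5 CPM in control OVCAR3 and 4.48 to 14.3 CPM in control CCL218, whereas MSLN was lower in control OVCAR3, at 10.7 to 18.3 against 46.4 to 94.8 CPM. WFDC2 (11.9 to 33.9 CPM in control OVCAR3, 4.66 to 13.0 CPM in control CCL218), FOLR1 (3.71 to 6.08 and 2.09 to 3.32 CPM), OVGP1 (8.64 to 10.9 and 4.08 to 5.68 CPM) and MEIS1 (1.48 to 3.33 and 3.18 to 4.79 CPM) were detected under both labels. WT1 stayed under 1 CPM in every control pool and was higher in the HCQ-evolved pools under both labels, at 0.653 to 2.35 CPM in OVCAR3 and 0.903 to 1.39 CPM in CCL218. CRABP2 (262 to 1241 CPM over all control pools) and BCAM (386 to 815 CPM) made up most of the summed level. The names OVCAR3 and CCL218 are therefore used here as labels, and whether the libraries come from distinct lines was not tested.

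**Figure D1:**
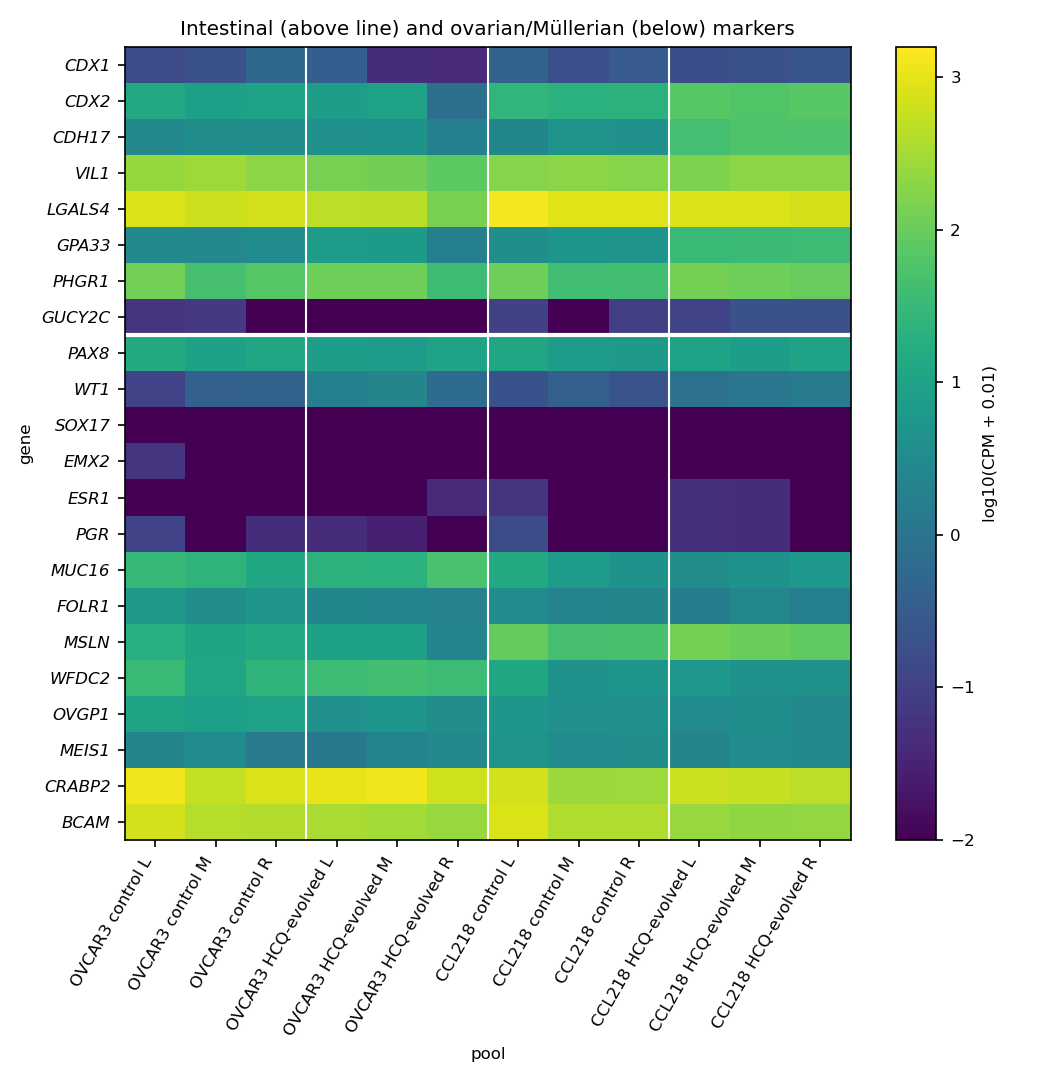
Level of 8 intestinal (above the thick line) and 14 ovarian and Müllerian markers (below it) in the 12 pools, as log10 of CPM plus 0.01 (colour), with pools in columns and genes in rows. LGALS4 and VIL1 are high under both labels, PAX8 and BCAM are detected under both, and SOX17 is at the lowest colour throughout.

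Levels of the members were compared between genes per kilobase of exon, taken as the union of all annotated exons of a gene. For HNF4A this union has 10167 bases and the longest transcript 4739, whereas CDH17 has 3878 and 3670. The level of HNF4A, and its place in the order, therefore depend on this choice. LGALS4 was the most abundant member in every group, at 328 ± 51.2 CPM per kb in control OVCAR3 and 470 ± 126 CPM per kb in control CCL218 (mean ± SD, n = 3). VIL1 came next in both controls (35.0 ± 6.76 and 27.2 ± 1.88 CPM per kb), followed by HNF4A (7.52 ± 1.20 and 11.5 ± 2.39 CPM per kb) and CDX2 (3.11 ± 0.720 and 6.61 ± 0.810 CPM per kb). The lower part of the order was not resolved in control OVCAR3, where CEACAM5, CEACAM6, GPA33, FABP1 and CDH17 averaged between 0.861 and 1.28 CPM per kb with SDs of 0.109 to 0.352. In HCQ-evolved CCL218, CEACAM6 stood next to LGALS4, at 34.3 ± 6.20 CPM per kb, and its spread overlapped that of VIL1 (26.8 ± 3.13 CPM per kb). CDH17 reached 13.6 ± 1.72 CPM per kb there, close on this divisor to CEACAM5 (15.3 ± 1.74), HNF4A (14.1 ± 0.434) and GPA33 (11.8 ± 0.754 CPM per kb).

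KRT20 was at or near 0 in every group. It had 0 counts in all 3 control OVCAR3 pools and 0 to 4 counts in the others, so it fell under the filter (1 CPM in at least 3 libraries) and was not tested.

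**Figure D2:**
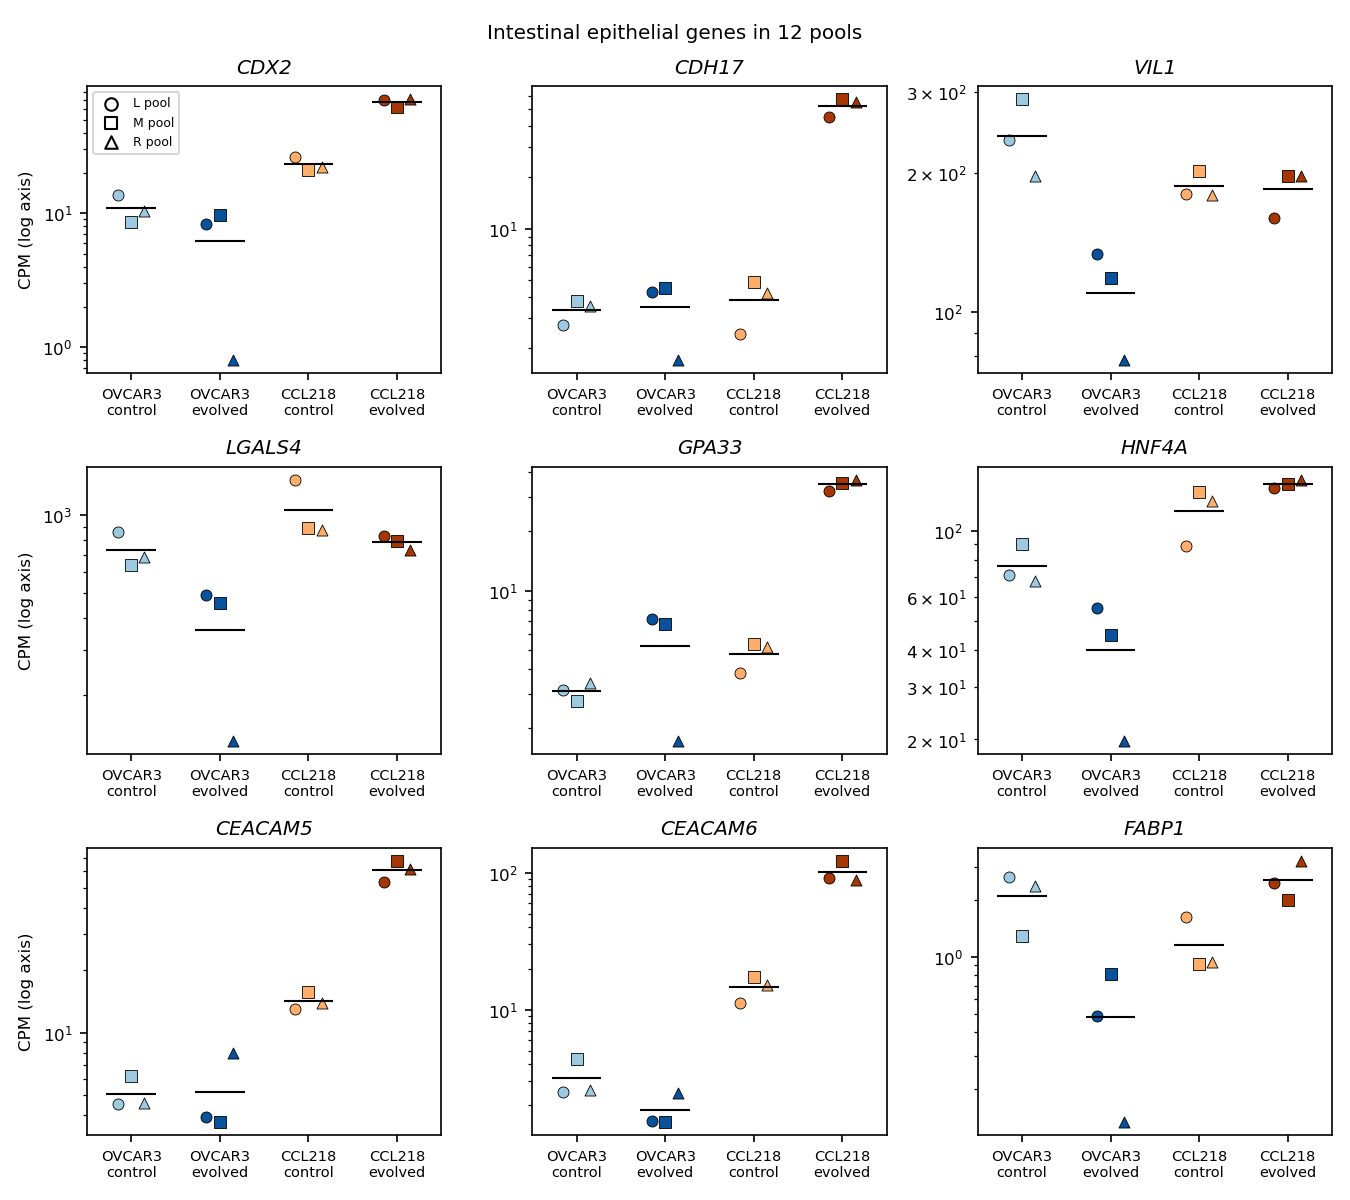
Level of 9 members in CPM (log axis, a separate range for each gene) in the 4 groups, with 1 point for each pool (circle L, square M, triangle R) and a line at the mean of 3. CDX2, CDH17, GPA33, CEACAM5, CEACAM6 and, by a small margin, HNF4A are highest in the 3 HCQ-evolved CCL218 pools. The R pool of HCQ-evolved OVCAR3 lies lowest for 7 of the 9 genes.

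In CCL218, CDX2, GPA33, CEACAM5 and CEACAM6 rose 2.91- to 7.25-fold on HCQ evolution, while VIL1, LGALS4 and HNF4A, the 3 most abundant members of the control pools, and FABP1 did not pass the test. Thus 4 of the 8 tested members other than CDH17 were higher and none was lower (edgeR's quasi-likelihood F test with Benjamini-Hochberg adjustment over 12241 genes, threshold 0.05), against 3.82% of all tested genes that were higher, 2.64% that were lower and 6.46% in either direction. The median log2 fold change of the 8 tested was 1.34, against -0.017 for all genes tested. These values are from the fit without a block. With plate position as a block, 5 members passed, FABP1 being added, and so did 14.2% of all genes.

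CDX2 was at 26.5, 21.2 and 22 CPM in the L, M and R pools of control CCL218 and at 69.8, 62.2 and 71.3 CPM in the HCQ-evolved pools (chromosome 13, 27960918 to 27969315, minus strand, hg38). All HCQ-evolved pools thus lay above all control pools. Its log2 fold change was 1.54 (SE 0.14, adjusted p = 0.00275). In a fit of all 12 libraries, where pools of both lines share 1 estimate of the spread, the change was of the same size but not called (1.54, SE 0.58, adjusted p = 0.161). HNF4A, its partner factor, measured 88.9, 135 and 126 CPM in controls and 139, 144 and 148 CPM after evolution (chromosome 20, 44355699 to 44432845, plus strand). These pools did not overlap, yet the difference did not pass the test (log2 fold change 0.30, SE 0.17, adjusted p = 0.313).

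Among the surface proteins, CDH17 had the largest difference. It was at 2.43, 4.87 and 4.23 CPM in control CCL218 and at 44.9, 57.4 and 55.3 CPM in HCQ-evolved CCL218 (chromosome 8, 94127162 to 94217303, minus strand), a 13.6-fold difference (log2 3.77, SE 0.27). This is the increase for which it was included, and it was not tested. GPA33, an immunoglobulin-family antigen of the gut lining, was at 3.81, 5.33 and 5.16 CPM in controls and 32.2, 35.4 and 36.5 CPM after evolution (chromosome 1, 167052836 to 167166479, minus strand). Every HCQ-evolved pool was at least 32.2 CPM and no control pool exceeded 5.33 CPM. It rose 7.25-fold (log2 2.86, SE 0.17, adjusted p = 0.000608).

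CEACAM5 and CEACAM6 rose together in CCL218. CEACAM5 (chromosome 19, 41708585 to 41730433, plus strand) went from 13.0, 15.7 and 13.9 CPM in controls to 53.6, 67.4 and 61.8 CPM, with a log2 fold change of 2.10 (SE 0.15, adjusted p = 0.00103). CEACAM6 (chromosome 19, 41750977 to 41772211, plus strand) went from 11.3, 17.3 and 15.2 CPM to 92.3, 122 and 89.2 CPM, with a log2 fold change of 2.79 (SE 0.21, adjusted p = 0.00146). For both, the M pool was the highest of its group before and after. Few reads could be shared with other genes. Of the 75-base windows, 2.74% of those of the longest CEACAM5 transcript and 3.17% of those of CEACAM6 occurred in another gene. That gene was never the other member of this pair. It was CEACAM3 for CEACAM5, CEACAM8 for CEACAM6, and the unnamed gene ENSG00000267881 for both. No window of the other 8 members occurred in another gene.

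VIL1, LGALS4 and FABP1 did not pass in CCL218. VIL1 measured 180, 202 and 180 CPM in controls and 160, 197 and 198 CPM after evolution (chromosome 2, 218419121 to 218453295, plus strand), and the groups overlapped (log2 fold change -0.024, SE 0.13, adjusted p = 0.924). LGALS4 (chromosome 19, 38801671 to 38812945, minus strand) was at 1369, 890 and 879 CPM in controls and 833, 792 and 730 CPM after evolution (log2 fold change -0.42, SE 0.20, adjusted p = 0.245). The groups did not overlap, and the L control pool stood well above the others. FABP1 (chromosome 2, 88122982 to 88128062, minus strand) was low in all pools, at 1.62, 0.914 and 0.939 CPM in controls and 2.46, 1.99 and 3.21 CPM after evolution. Its log2 fold change of 1.14 (SE 0.32) had an adjusted p = 0.0821 and passed when plate position was added as a block (1.15, adjusted p = 0.0363). The pools of 7 of the 8 tested members other than CDH17 did not overlap in CCL218, which was also true of 36.0% of all tested genes.

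**Figure D3:**
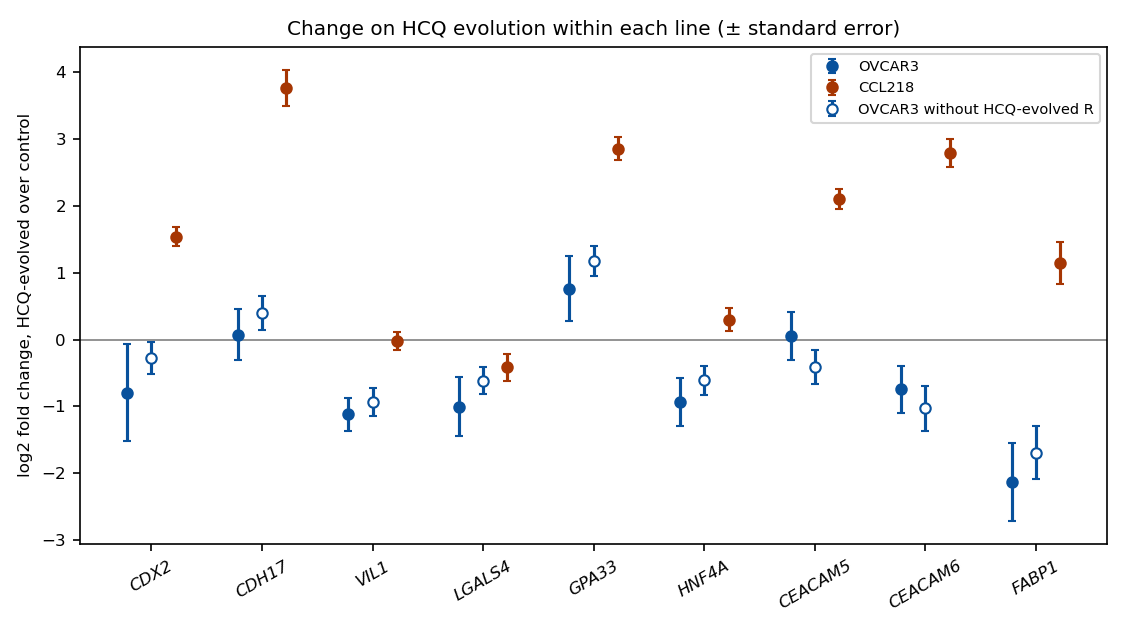
Log2 fold change of HCQ-evolved over control pools (vertical axis, ± standard error) for 9 members in OVCAR3 (filled blue), CCL218 (filled red) and OVCAR3 without the HCQ-evolved R pool (open blue), the zero line marking no change. The CCL218 points lie between -0.42 and 3.77, and those of OVCAR3 lie below zero for VIL1, LGALS4, HNF4A, CEACAM6, CDX2 and FABP1.

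In OVCAR3, none of the 8 tested members other than CDH17 passed the test. Of these 8, 3 had an unadjusted p under 0.05 (VIL1, HNF4A and FABP1, each lower after evolution), as did 7.87% of all genes in that direction. At the adjusted threshold, 0.647% of all genes passed as higher, 1.21% as lower and 1.86% in either direction. DESeq2's Wald test, run as an alternative, called 2 members, VIL1 and FABP1, and 9.05% of all genes. The median log2 fold change of the 8 tested was -0.86, against 0.016 for all genes, and FABP1 entered the test only through the control pools (0 of 3 HCQ-evolved pools reached 1 CPM), so a difference in it was built into the filter. The pools of 5 members did not overlap, against 25.7% of all genes.

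VIL1 was at 237, 290 and 197 CPM in control OVCAR3 and at 133, 118 and 78.5 CPM in HCQ-evolved OVCAR3. All evolved pools were lower, and the log2 fold change was -1.12 (SE 0.25, adjusted p = 0.0708). LGALS4 was at 859, 643 and 687 CPM in controls and 490, 457 and 133 CPM after evolution (-1.01, SE 0.44, adjusted p = 0.318), and HNF4A was at 71.2, 90.4 and 67.8 CPM against 55.1, 44.8 and 19.8 CPM (-0.93, SE 0.36, adjusted p = 0.256). In each of these the R pool of HCQ-evolved OVCAR3 was the lowest of all 12 libraries.

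CDX2 was at 13.7, 8.67 and 10.4 CPM in control OVCAR3 and at 8.26, 9.72 and 0.803 CPM after evolution, so that the M pool lay within the controls, the L pool just below them and the R pool far below. The log2 fold change of -0.79 carried an SE of 0.72 (adjusted p = 0.639). FABP1 was at 2.63, 1.29 and 2.37 CPM in controls and 0.489, 0.810 and 0.134 CPM after evolution (-2.13, SE 0.59, adjusted p = 0.119). CDH17 was at 2.73, 3.77 and 3.52 CPM and then at 4.26, 4.52 and 1.71 CPM, a log2 difference of 0.07 (SE 0.38) that is given without a test.

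GPA33 was at 3.12, 2.76 and 3.40 CPM in control OVCAR3 and at 7.21, 6.73 and 1.72 CPM after evolution, with L and M above every control pool and R below them. With all pools the log2 fold change was 0.76 (SE 0.49, adjusted p = 0.496), and without the HCQ-evolved R pool it was 1.17 (SE 0.23, adjusted p = 0.024). CEACAM5 was at 4.54, 6.16 and 4.55 CPM in controls and 3.91, 3.70 and 7.93 CPM after evolution (0.05, SE 0.36, adjusted p = 0.963). CEACAM6 was at 2.48, 4.33 and 2.59 CPM and 1.54, 1.51 and 2.46 CPM (-0.75, SE 0.35, adjusted p = 0.354). In CEACAM5 and CEACAM6 the R pool was the highest HCQ-evolved OVCAR3 pool, the opposite of its place for the other tested members.

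The R pool of HCQ-evolved OVCAR3 was the lowest of the 12 libraries for CDX2, VIL1, LGALS4, GPA33, HNF4A and FABP1, but not for CEACAM5 or CEACAM6. It was also the lowest for CDH17, whose values served to choose the set. Over all genes, it was the lowest library for 2213 of 12613 (17.5%). On the log2 scale it lay 3.42 below the mean of its L and M pools for CDX2, further than all but 0.041% of 12204 genes, and 1.99, 1.94 and 1.83 below for GPA33, FABP1 and LGALS4. For CEACAM5 and CEACAM6 it lay 1.05 and 0.68 above. This library also had the strongest trend with gene length, taken as the union of annotated exons. Spearman's rho between this length and the library's deviation from the mean of its line was 0.457 across 12211 genes. The other pools ranged from -0.380 to 0.388. With a smooth trend in length and GC content removed from each library, R was 3.07 below for CDX2, 1.61 for GPA33, 1.66 for HNF4A and 1.27 for LGALS4. Its depth was 58128587 counts, within the range of the others, and why this pool was low for most members was not tested. Without it, 3 members passed in OVCAR3: VIL1 (-0.94, SE 0.22, adjusted p = 0.0458), GPA33, and FABP1 (-1.69, SE 0.40, adjusted p = 0.05 after rounding, just inside the threshold). In that fit 4.6% of 12113 genes passed, and FABP1 again entered it through the control pools. Each pool was left out in turn, and this one is singled out for its low values of these members. The calls gained without it are therefore a description.

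Whether the response differed between the line labels was tested as an interaction in 1 fit of all libraries. CEACAM5 and CEACAM6 passed, both with a larger increase in CCL218, making 2 of the 8 tested members other than CDH17 against 0.69% of 12613 genes with a higher value in CCL218 and 0.872% in either direction. The difference in log2 fold change was 3.56 for CEACAM6 (SE 0.39, adjusted p = 0.00244) and 2.07 for CEACAM5 (SE 0.38, adjusted p = 0.0325). CEACAM5 lost the call with plate position as a block (2.14, adjusted p = 0.1) and on leaving out any single pool (adjusted p up to 0.114) except the R pool of HCQ-evolved OVCAR3, without which it was 2.51 (SE 0.24, adjusted p = 0.00134). CEACAM6 kept the call in each of these fits (0.0017 to 0.0123 on leaving out pools).

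The differences of CDX2 (2.35, SE 0.83, adjusted p = 0.317), GPA33 (2.11, SE 0.56, adjusted p = 0.134) and FABP1 (3.29, SE 0.72, adjusted p = 0.0701) did not pass with all pools. Each passed without the HCQ-evolved OVCAR3 R pool, at 1.83 (SE 0.26, adjusted p = 0.00811), 1.69 (SE 0.23, adjusted p = 0.00666) and 2.84 (SE 0.55, adjusted p = 0.0309), in a fit that called 1.69% of all genes. That pool is singled out for its low values of these same genes, so these calls are a description. By the same test, leaving out other pools gave adjusted p up to 0.577, 0.318 and 0.2 in the same order. The values of VIL1 (1.11, adjusted p = 0.121), HNF4A (1.24, adjusted p = 0.31) and LGALS4 (0.60, adjusted p = 0.963) did not pass with all pools or without that R pool. For CDH17 the difference was 3.71 (SE 0.50), without a test.

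Between the lines, 2 members passed in control pools and 7 in HCQ-evolved pools, each higher in CCL218. These comparisons use the same pools as those within each line, so they are another view of the same values. In control pools, CEACAM5 and CEACAM6 alone were higher in CCL218, by log2 1.49 (SE 0.27, adjusted p = 0.012) and 2.23 (SE 0.28, adjusted p = 0.00157), against 1.35% of genes that were higher and 3.42% that differed in either direction. The control pools of 5 of the 8 tested members other than CDH17 did not overlap, against 17.8% of all tested genes. CEACAM5 lost the call without the OVCAR3 control L or R pool or the CCL218 control M pool. CDX2 was 1.09 higher with an SE of 0.58 (adjusted p = 0.422), although its pools did not overlap, and CDH17 differed by 0.21 (SE 0.35, no test). A difference between the lines in FABP1 of -0.86 (SE 0.50, adjusted p = 0.448) had the opposite sign. Without the HCQ-evolved OVCAR3 R pool, which enters only through the shared spread, CDX2 and GPA33 passed as well, making 4 members, and 6.15% of all genes were called in that fit.

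In HCQ-evolved pools, 7 of the 8 tested members other than CDH17 were higher in CCL218 than in OVCAR3, against 6.67% of all tested genes. The pools of 8 did not overlap, against 37.3% of all genes. CEACAM6 was highest at log2 5.78 (SE 0.32, adjusted p = 5.78e-06), followed by CEACAM5 at 3.55 (SE 0.29, adjusted p = 4.18e-05) and CDX2 at 3.44 (SE 0.63, adjusted p = 0.00437). GPA33 (2.73, adjusted p = 0.00142), FABP1 (2.43, adjusted p = 0.0109), HNF4A (1.85, adjusted p = 0.00285) and VIL1 (0.75, adjusted p = 0.0344) followed. VIL1 lost the call with the length and GC trend removed (0.48, adjusted p = 0.149), and without the M pool of HCQ-evolved OVCAR3, the R pool of control CCL218 or the M or R pool of HCQ-evolved CCL218 (adjusted p up to 0.126). LGALS4 did not pass (1.12, SE 0.39, adjusted p = 0.0811). It did in some other fits, among them those with plate position as a block (1.24, adjusted p = 0.0349) and without the HCQ-evolved OVCAR3 R pool (0.73, SE 0.21, adjusted p = 0.0291). DESeq2 called all 8 tested members, LGALS4 included. CDH17 was 15.0-fold higher (log2 3.91, SE 0.37), again without a test.

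**Figure D4:**
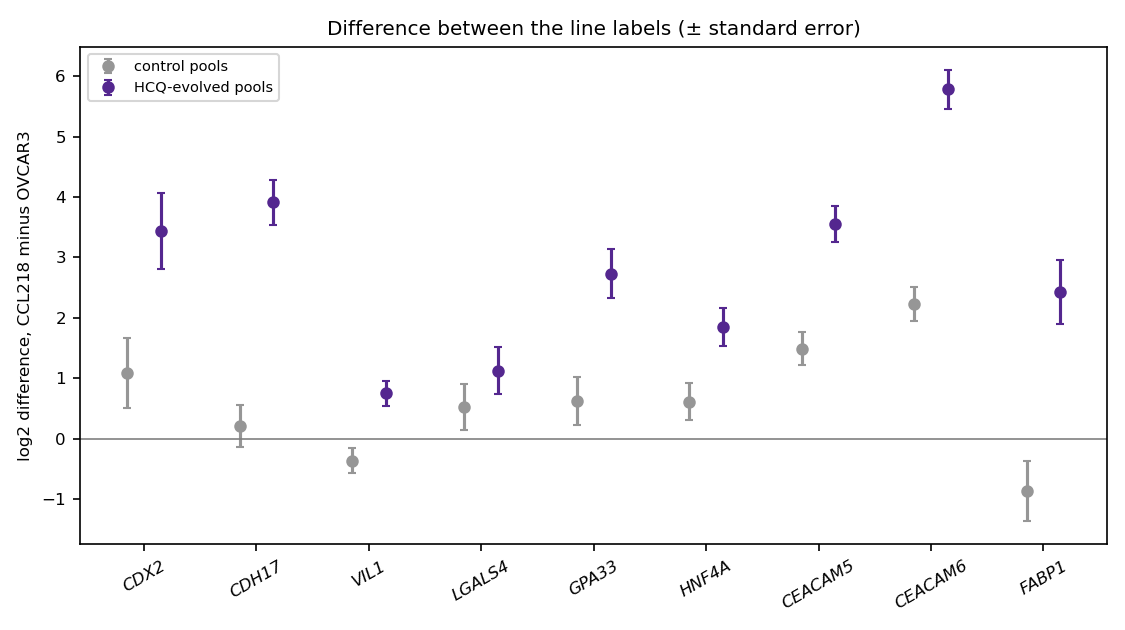
Log2 difference of CCL218 minus OVCAR3 (± standard error) for 9 members in control pools (grey) and HCQ-evolved pools (purple), the horizontal line marking equal levels. Control differences lie between -0.86 and 2.23, and for every gene the HCQ-evolved difference is the higher of the pair, reaching 5.78 for CEACAM6.

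Other genes of the same roles were read from 8 lists, in the fits without a block only. Of all tested genes, 3.82% passed as higher and 2.64% as lower in CCL218. In OVCAR3 these shares were 0.647% and 1.21%, and 0.872% passed in the interaction. Of 18 transcription factors of the intestine, 12 were tested in CCL218 beside the members, and KLF4, a factor of differentiating surface and goblet cells, and ELF3, an epithelial ETS factor, rose while FOXA1 fell. KLF4 went from 17.9, 20.9 and 19.3 CPM to 54.7, 54.7 and 47.7 CPM (log2 1.43, SE 0.13, adjusted p = 0.00253). In OVCAR3 its pools lay lower after evolution, 13.4, 11.5 and 7.72 CPM against 16.2, 26.5 and 25.4 CPM, without passing the test (-1.05, adjusted p = 0.118), and the difference between the lines passed (2.5, SE 0.32, adjusted p = 0.00474). ELF3 had a log2 fold change of 1.01 in CCL218 (SE 0.18, adjusted p = 0.0246) and FOXA1 of -0.56 (SE 0.11, adjusted p = 0.0308). None of 13 factors passed in OVCAR3, the smallest p being that of FOXA3 (-1.83, SE 0.38, adjusted p = 0.0583). The list medians were -0.60 in OVCAR3 and 0.08 in CCL218.

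Of 19 genes of the brush border, the apical surface of microvilli that VIL1 helps to build, 2 of 13 tested rose in CCL218 and none fell. Of all tested genes, 3.82% rose and 2.64% fell. MYO7B, a motor of the links between microvilli, rose from 35.1, 29.3 and 24.0 CPM to 73.9, 86.3 and 84.4 CPM (log2 1.47, SE 0.17, adjusted p = 0.00574). MEP1A, which encodes the alpha subunit of the metalloprotease meprin, went from 0.131 ± 0.071 to 1.67 ± 0.255 CPM (log2 3.61, SE 0.40, adjusted p = 0.00475), and passed the filter only through the HCQ-evolved pools, so it had to differ. In OVCAR3 none of 12 passed, DPP4 having the smallest p (-0.82, SE 0.30, adjusted p = 0.221). The list medians were 0.71 in CCL218 and -0.07 in OVCAR3.

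CEACAM7, a membrane-anchored relative that lies 1.61 kb from CEACAM5 on the other strand, rose in CCL218 from 1.03, 0.957 and 1.37 CPM to 8.66, 8.56 and 11.6 CPM (log2 3.10, SE 0.23, adjusted p = 0.0012). In OVCAR3 its pools overlapped (0.20, SE 0.52, adjusted p = 0.889). The annotated genes do not overlap, but the strand setting of the counting is not given, and whether reads from the strand of CEACAM5 entered the count of CEACAM7 was not tested. CEACAM1, which lies 777 kb away, was at 184 ± 23.8 CPM in control CCL218 and 188 ± 10.5 CPM after evolution (0.02, SE 0.13, adjusted p = 0.928). Of 14 CEACAM and PSG relatives only 3 were tested in either line, and CEACAM19 had the smallest p in OVCAR3 (-0.64, SE 0.34, adjusted p = 0.4). The medians were -0.03 in OVCAR3 and 0.04 in CCL218.

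Most genes of the mature absorptive cell were below the filter, as KRT20 was. Of 15 such genes, 3 were tested in CCL218: CEACAM7 rose, and GUCA2A, which encodes the peptide guanylin, fell from 2.51 ± 1.66 to 0.298 ± 0.034 CPM (log2 -3.06, SE 0.51, adjusted p = 0.0193). GUCA2A passed the filter only through the control pools, so it too had to differ. Of 2 tested in OVCAR3, none passed, and CEACAM7 had the smaller p. The medians over these few genes were 0.82 and 0.19.

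Among genes of secretory cells, those that passed were lower after evolution in both lines. In CCL218, 3 of 11 tested fell and none rose: ATOH1, the factor that commits cells to the secretory lineage (-0.70, SE 0.15, adjusted p = 0.0374), SPINK4, a goblet cell inhibitor of proteases (-2.25, SE 0.43, adjusted p = 0.0294), and FCGBP, a mucus protein (-1.09, SE 0.21, adjusted p = 0.0297). ATOH1 and FCGBP also fell in OVCAR3, ATOH1 from 11.01 ± 1.79 to 2.06 ± 1.13 CPM (-2.41, SE 0.45, adjusted p = 0.0479) and FCGBP from 53.1 ± 8.85 to 14.5 ± 4.09 CPM (-1.86, SE 0.26, adjusted p = 0.0223), and none rose. The list medians were -1.37 in OVCAR3 and -0.49 in CCL218. No gene of this list passed in the interaction.

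Of 26 cadherin genes, 6 were tested in CCL218 beside CDH17. CDH3, the P-cadherin, rose from 11.3 ± 1.34 to 33.0 ± 6.20 CPM (log2 1.55, SE 0.18, adjusted p = 0.00596), and CLSTN1, a calsyntenin, rose as well (0.71, SE 0.15, adjusted p = 0.0403). CDH1, the E-cadherin that holds most epithelia together, was at 522 ± 95.0 and 806 ± 59.7 CPM (0.62, SE 0.16, adjusted p = 0.0707). None of 7 passed in OVCAR3, CDH26 having the smallest p (1.16, SE 0.35, adjusted p = 0.15). Of all tested genes, 3.82% were higher in CCL218 and 0.647% in OVCAR3. The medians were 0.67 in CCL218 and 0.15 in OVCAR3.

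Of 16 general markers of simple epithelium, CLDN7, a tight junction protein, was the only 1 of 13 tested that was called in CCL218 (0.58, SE 0.14, adjusted p = 0.049), and in OVCAR3 none of 14 passed, CLDN1 having the smallest p (-0.57, SE 0.24, adjusted p = 0.306). The medians were 0.39 and 0.08. Among 16 galectins and fatty acid binding proteins, the families of LGALS4 and FABP1, LGALS9C was the only gene called in either line, higher after evolution in both OVCAR3 (2.62, SE 0.40, adjusted p = 0.0266) and CCL218 (2.20, SE 0.29, adjusted p = 0.00767). It averaged 0.502 and 0.557 CPM in controls, passed the filter only through the HCQ-evolved pools, and has close copies in the genome, so its level is uncertain. The medians of this list were 0.05 and 0.39.

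**Figure D5:**
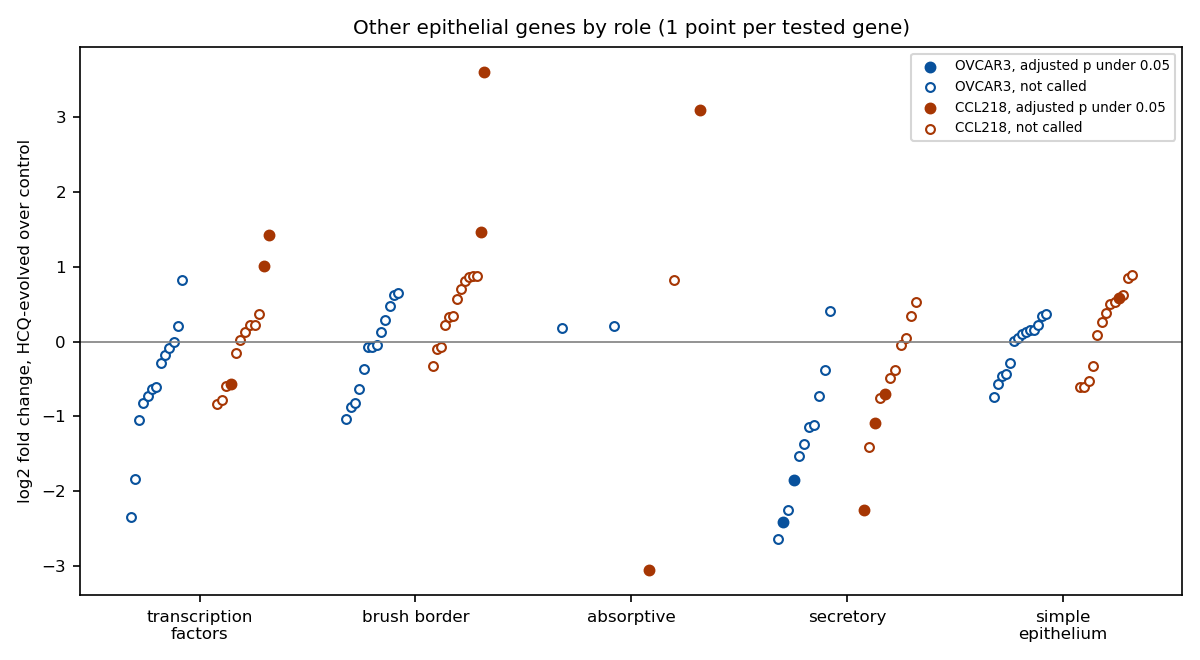
Log2 fold change of HCQ-evolved over control pools for each tested gene of 5 lists (columns), OVCAR3 in blue and CCL218 in red, sorted within each list, filled where the adjusted p was under 0.05. Filled red points lie above zero for 2 transcription factors and 2 brush border genes, and all filled points of the secretory list lie below zero.

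Markers of cells foreign to both lines were low or not specific. Summed over 7 fibroblast markers the level was 0.636 to 3.34 CPM in all pools, and over 4 endothelial markers it was 0.669 to 3.21 CPM. In CCL218 both sums overlapped between HCQ-evolved and control pools (fibroblast 2.31 to 3.01 against 1.66 to 3.34 CPM, endothelial 0.669 to 1.64 against 1.02 to 1.49 CPM). Of 6 immune markers, 3 averaged at least 1 CPM in every group, and LYZ, which secretory cells of the gut also express, made up nearly all of their sum. PTPRC and CD3E, which define leukocytes, were at or near the floor. CD68, a lysosomal protein used as a macrophage marker, rose in CCL218 from 12.7 ± 1.42 to 50.0 ± 1.81 CPM (log2 1.98, SE 0.14, adjusted p = 0.00102). In OVCAR3 it was at 15.0 ± 2.77 CPM in controls and 35.7 ± 7.83 CPM after evolution, with pools that did not overlap (1.26, SE 0.24, adjusted p = 0.051). The immune sum was lower in HCQ-evolved than in control CCL218 (1717 to 1957 against 2018 to 2295 CPM), and the sum of ovarian markers overlapped (815 to 1019 against 723 to 1673 CPM). The part of these markers in the results was not tested.

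Genes whose levels across the 12 libraries were most like those of CDH17 and CDX2 were read as Pearson's r of log2 CPM over 12612 other genes. All 12 points come from 4 groups that share plates, so r is a description with no p. CDH17 was included for its increase in CCL218 only, so genes high in HCQ-evolved CCL218 alone rank high with it by construction. For CDH17, GPA33 had the highest Pearson's r (0.973), followed by UGCG (0.968), THRB (0.966), CYP2J2 (0.964) and SLC22A5 (0.960). CYP2J2 was at 0.361 and 0.526 CPM in the 2 OVCAR3 groups, 0.430 CPM in control CCL218 and 6.82 ± 0.756 CPM in HCQ-evolved CCL218, and THRB at 2.81, 2.20, 2.70 and 10.2 ± 0.990 CPM in the same order. UGCG (79.6 ± 3.99 CPM against 55.8 to 56.7 in the other groups) and SLC22A5 (14.1 ± 0.554 CPM against 8.53 to 9.71) followed the pattern with a smaller step. The step of UGCG in CCL218 was not called (edgeR, adjusted p = 0.063). CYP2J2 passed the filter only through the HCQ-evolved CCL218 pools, so it had to be highest there. With ranks in place of values (Spearman's rho), GPA33 was at 0.902, which is place 12 among all genes, UGCG at 0.881, THRB at 0.79, SLC22A5 at 0.776 and CYP2J2 at 0.594, and with the length and GC trend removed Pearson's r fell to 0.664 for SLC22A5.

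For CDX2, the most alike were CDH3 (0.978), MAN1C1 (0.973), LANCL3 (0.966), XYLT1 (0.958) and KALRN (0.958), and LANCL3 came first by Spearman's rho (0.979). CDH3 was at 2.78 ± 0.301 CPM in control OVCAR3, 1.94 ± 1.43 CPM in HCQ-evolved OVCAR3, 11.3 ± 1.34 CPM in control CCL218 and 33.0 ± 6.20 CPM in HCQ-evolved CCL218. Like CDX2, it was lowest in the R pool of HCQ-evolved OVCAR3, at 0.301 CPM. MAN1C1 rose and fell over a lower range, from 1.10 ± 0.696 CPM in HCQ-evolved OVCAR3 to 8.60 ± 2.41 CPM in HCQ-evolved CCL218, and KALRN ran from 13.4 ± 7.95 to 68.0 ± 3.92 CPM between the same groups. LANCL3 and XYLT1 did not exceed 2.13 CPM in any pool, and XYLT1 passed the filter only through the HCQ-evolved CCL218 pools. In CCL218, KALRN (edgeR, adjusted p = 0.0763) and LANCL3 (edgeR, adjusted p = 0.26) were not called. Among the members, HNF4A was the most like CDX2 (0.925), and CDX2 was at 0.779 with CDH17.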

How the data were processed

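The study measured polyA RNA in 12 pools of cells. The authors deposited raw counts per gene symbol, for which the methods name STAR as aligner, hg38 as genome, RmDup for duplicate removal and featureCounts for counting of paired-end reads (versions, annotation and strand setting not given in the sources used here). Removal of duplicates without molecular identifiers can cap abundant genes, and 78.9% of entries of 1 to 4 counts were even. Columns were mapped to samples by title and 0 were left unmapped. Depth was 31147822 to 59965861 counts per pool, and 3 counts were taken as the floor, which covers counting error only.

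Counts were scaled by TMM and fitted in edgeR 4.0.16 (R 4.3.3; quasi-likelihood F test, robust) for genes at 1 CPM in at least 3 libraries, each line alone, or all 12 for comparisons between lines, with Benjamini-Hochberg adjustment at 0.05. The SE is the log2 fold change divided by the square root of F. DESeq2 1.42.0 and limma voom 3.58.1, other scalings and filters, a plate-position block, a length and GC spline and leaving out each pool were alternatives. The members, gene lists and tests were chosen with earlier results of these data known. One gene of the lists is not reported here. The genes named are the members, the list member with the smallest p in each line, ovarian markers at 1 CPM in any group, and the 5 genes most like CDH17 and CDX2, and other listed genes, those that passed as well as CEACAM1, CDH1, SOX17, EMX2, ESR1, PTPRC, CD3E and LYZ, were named after their values were seen. After removing group means, the same plate positions correlated across genes in CCL218 (0.542 for L, 0.270 for M, 0.227 for R), each over 0.1, which was taken as pairing by position. Trends with gene length (union of exons) also had the same sign in both arms of CCL218 at each position. They were -0.380 and -0.202 for L, 0.363 and 0.214 for M, and 0.03 and 0.353 for R (control, then HCQ-evolved). Whether the correlations reflect position or such trends was not tested. The values reported are from fits without a block. For the members, the blocked value stands beside them where it changes a call or the number of calls. For genes of the other lists and for markers no blocked value is given, and whether the block changes their calls was not tested. With the block, 1744 of 12241 genes were called in CCL218 in place of 791. OVCAR3 gave 0.422, -0.692 and -0.5 and was not taken as paired, and its length trends had opposite signs between arms for M and R.

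Coordinates, exon lengths and GC content came from GENCODE 44, which matched 25763 of 28278 symbols (91.1%), and upstream sequences from RefSeq for 8 of the 10 members. Tested on simulated data with 200 genes changed by a log2 size of 1.5, the fits recovered 154 in OVCAR3, 155 in CCL218, 77 in the interaction, 166 between control pools and 162 between HCQ-evolved pools, with 8, 8, 2, 6 and 6 false calls. The simulated libraries shared a common mean for each gene, with independent noise. They held no line difference, length trend, pairing by position or outlying pool, so these numbers describe simpler data than the real libraries.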

Additional observations from a re-analysis of the deposited data

Results flagged for a closer look

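The change on HCQ evolution differed between the line labels, by the interaction test over all 12 libraries, for CEACAM6 (difference in log2 fold change 3.56, adjusted p = 0.00244, edgeR) and for CEACAM5 (2.07, adjusted p = 0.0325, edgeR). The call of CEACAM5 was lost with plate position as a block (2.14, adjusted p = 0.1, edgeR) and on leaving out any single pool except the R pool of HCQ-evolved OVCAR3. In every HCQ-evolved CCL218 pool both genes were above every control CCL218 pool, and in OVCAR3 neither passed the test. No outlier test was run on single pools, since each group held 3.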

How the results depend on the processing

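In OVCAR3, 0 members were called as reported, and 1 was called with no filter on low counts (VIL1), 1 with the length and GC trend removed and a replicate block (VIL1), 2 by DESeq2 (VIL1 and FABP1) and 2 in the fit of all 12 libraries (VIL1 and FABP1). Leaving out each pool gave 0 to 3, with 3 only without the R pool of HCQ-evolved OVCAR3. The interaction called 5 members by DESeq2 in place of 2, 1 with the replicate block by plate position, 1 with the block and the length and GC trend removed, and 1 to 5 on leaving out each pool, with 5 only without that R pool. Leave-one-out fits called 4 to 5 members in CCL218 (5, with FABP1, without the control L pool), 1 to 4 between control pools (4 without that R pool) and 6 to 8 between HCQ-evolved pools. CEACAM5 in OVCAR3 changed sign around zero (-0.0094 with upper quartile scaling, -0.01 with voom, -0.029 with the block, -0.013 with the block and trend removed, -0.41 to 0.25 on leaving out each pool), as did VIL1 in CCL218 (0.011 with no filter, -0.074 to 0.074 on leaving out each pool). Over all genes, OVCAR3 had 227 calls as reported, 1105 by DESeq2, 1165 in the fit of all 12 libraries, 549 with no filter, 643 with the trend removed and 81 with the block, and CCL218 had 791, 2172, 654, 1005, 1657 and 1744. The cause of these shifts was not tested. In OVCAR3 plate position was not taken to pair the pools. The block changed no other call of a member than those given above. FABP1 had 8 to 192 counts per pool and KRT20 had 0 to 4, which limits what these members can show.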
